A study of Mus musculus with 574 samples.

Results

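The cells described are the granulocyte/macrophage progenitors (GMPs) sorted from mouse bone marrow 12 days after a single dose of 5-fluorouracil (5-FU), at 150 mg/kg. Members are the cells titled as the day 12 set that had at least 50000 reads in gene rows and at least 1000 genes with a read. Of 95 cells with a column, 85 passed and 10 did not, the 10 having 21795 to 49783 reads. They are 85 of 500 cells kept by the same filter over the whole series, which sampled GMPs on several days around 5-FU treatment. 5-FU is a pyrimidine analogue that kills dividing cells, so blood progenitors are lost and then return. Mice were wild type C57Bl/6 animals of 6 to 12 weeks. Marrow was enriched on c-Kit beads, and the gate kept cells that carried c-Kit, CD34 and the Fcγ receptor and lacked Sca-1 and the antigens of mature lineages. Each cell went into a well of its own and was amplified with Smart-seq2, a full-length cDNA method that counts PCR copies because it has no molecular identifiers. The protocol names crushed and flushed bones without saying which was used on day 12, nor how many mice gave cells. The 85 cells are 1 set, so cells are not replicates, and every value below describes these libraries.

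GMPs give rise to neutrophils and monocytes. The transcription factor IRF8 directs cells to the monocyte and dendritic cell branch, while GFI1 and C/EBPε direct them to the granulocyte branch. Primary granule proteins such as myeloperoxidase and neutrophil elastase are made early, before the S100 proteins and secondary granule proteins of maturing neutrophils appear.

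Depth differed widely between wells. Reads in genes ran from 50843 through a median of 158578 to 816908 per cell. Each cell was therefore thinned at random to 50000 reads in genes, so that 1 read is 20 CPM, and a value below called thinned reads is at this depth. Thinned cells had 2620, 5149 and 6084 genes as lowest, median and highest. A single gene, Slc34a2 (chr5:53038081-53071664 on GRCm38), which encodes a sodium-phosphate cotransporter of lung epithelium, took 5.30% to 83.1% of a cell's reads in genes, with a median of 16.9%. Its share was higher in shallow cells (Spearman rho -0.77 with reads in genes). Genes detected after thinning still followed depth (rho 0.77), so correlations between genes were taken as partial Spearman correlations given the ranks of both. The 8 cells with library index S517 stood apart, with a median of 79429.5 reads and 42.1% Slc34a2. No cells had identical counts (0 pairs). Xist, from the inactive X chromosome, had a thinned read in 75 cells and the Y-linked Eif2s3y in 7, and 5 cells had both. The labels do not give the sex of the mice. Intervals and limits cover counting error only.

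The sort markers were present in most cells. Cd34 transcripts had a thinned read in 80 of 85 cells (94.1%, exact 95% interval 86.8 to 98.1%), with a median of 17 and a highest value of 82 reads. Fcgr3, which encodes an Fcγ receptor of the gate, was read in 78 cells with a median of 13. Kit was read in 66 cells with a median of 3. Sca-1, gated out, is encoded by Ly6a, which was read in 9 cells and held 54.5% of its reads in a single cell. Reads of the 7 listed lineage gate genes summed to a median of 1 and at most 12 per cell. Of these genes Ly6c1 was the most widely read, in 60% of cells with a mean of 1.66 reads. It is a near copy of Ly6c2 and may share its reads. Itgam, for CD11b, was read in 13 cells with a highest value of 5, and Ly6g in 6. Cd3e and Cd8a had no thinned read in any of the 85 cells, which allows a share of up to 3.53%.

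Of the 3 markers given with the set, Ly6c2 had at least 1 read in every cell, Irf8 in most and S100a8 in a minority. Ly6c2 (chr15:75108158-75111970, minus strand) encodes a surface protein of monocytes and late GMPs. It had 1, 177 and 743 thinned reads as lowest, median and highest, and 77 cells had at least 3 reads. Irf8 (chr8:120736358-120756694) was read in 63 cells (74.1%, 63.5 to 83%) with 0, 7 and 253 reads, and in 88.2% of cells without thinning. S100a8 (chr3:90668978-90670035), a calcium-binding protein of neutrophils, was read in 27 cells (31.8%, 22.1 to 42.8%) with 0, 0 and 738 reads, and in 42.4% without thinning. At a stricter minimum of 3 thinned reads the shares were 90.6% for Ly6c2, 56.5% for Irf8 and 16.5% for S100a8. Early lymphoid and B cell genes are given as a comparison at low reads, and whether their reads are stray was not tested. In a cell, reads of this list summed to at most 3, those of erythroid genes to 23 and those of macrophage genes to 53. Of 10 early lymphoid and B cell genes, Ebf1, a transcription factor, had 1 or 2 thinned reads in 27 cells, the other 9 were read in 0 to 3 cells, and none had 3 reads in any cell. S100a8 had at least 3 reads in 14 cells. Elane, Mpo, Prtn3 and Ctsg had at least 3 thinned reads in every cell, whereas Ly6c2 had 1 or 2 reads in 8 cells.

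**Figure D1:**
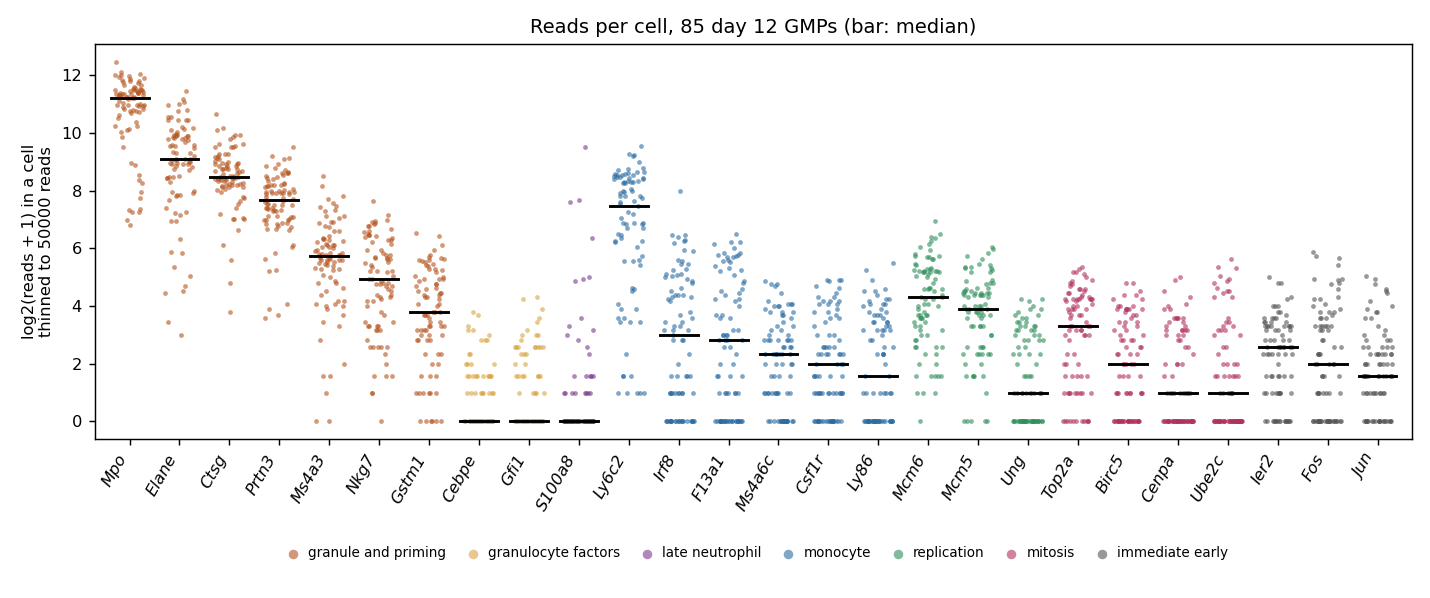
Reads per cell of 26 lineage, cycle and immediate early genes, as log2(reads + 1) at 50000 thinned reads, for 85 day 12 GMPs. Each point is a cell and each bar a median, and colours mark the gene groups. Mpo has at least 111 reads and Elane at least 7 in every cell, while Irf8 runs from 0 to 253 reads and S100a8 from 0 to 738.

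Genes of the granule programme were the most broadly detected lineage group. Of 10 members, 9 were read in at least 90% of cells, and their summed thinned reads ran from 184 through 3757 to 8732. Mpo, which encodes myeloperoxidase, had 111, 2404 and 5666 reads as lowest, median and highest. Elane, for neutrophil elastase (chr10:79886247-79888215), had 7, 543 and 2813 reads. Cathepsin G, from Ctsg, had 13, 356 and 1629 reads, and proteinase 3, from Prtn3, had 11, 203 and 732. No cell lacked reads of any of these 4 granule enzymes, but the thinned reads of each differed by more than an order of magnitude between cells. The lowest Ctsg and Mpo values were in cells 29 and 5, where Slc34a2 took 83.1% and 57.7% of reads in genes. Those of Elane and Prtn3 were in cells 6 and 41, with 11.7% and 19.6%. The part of the Slc34a2 share in these ranges was not tested. Nkg7, for a granule membrane protein, had 0, 30 and 200 reads, and Ms4a3, a marker of committed GMPs, had 0, 52 and 367. The exception was Fcnb, for ficolin B of later granulocyte precursors, which was read in 18 cells with a highest value of 14.

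The granule genes rose and fell together across cells once depth and genes detected were held. Over the 45 pairs of the list the median partial rho was 0.41, and 24 pairs reached 0.4. Over all 34698615 pairs of the 8331 genes read in at least 20% of cells, the median was 0.01. Of these pairs 0.0440% reached 0.4 and 0.00963% were at -0.4 or below. Elane and Nkg7 had the highest value, 0.77, and stayed between 0.63 and 0.79 under the alternatives of processing listed in the closing section. Ctsg and Ms4a3 had 0.73, Elane and Ms4a3 0.72, and Elane and Prtn3 0.70. The cell with most Elane, 2813 reads, was also the cell with most Nkg7, 200 reads, and it had no Irf8 read. Over all genes, 58 had a rho of at least 0.4 with Elane. Fcgr3, used in the gate as a protein, was among them at 0.68. Cd34, the other gate gene with many reads, was the single gene at or below -0.4 with Elane (-0.48). Cd34 encodes a sialomucin of stem and progenitor cells, and it also had -0.48 with Ms4a3, -0.48 with Gstm1 and -0.47 with Nkg7. With the other enzymes Cd34 was less tied, at -0.34 with Prtn3, -0.27 with Ctsg and -0.053 with Mpo, whereas Fcgr3 had 0.50, 0.60 and 0.51 with these 3. Igfbp4, for an insulin-like growth factor binding protein, did not follow the granule genes it was listed with. It had a median rho of -0.17 with them and 0.37 with the monocyte list.

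A second block was formed by monocyte genes. Of 14 members, 11 were read in at least 20% of cells, and their 55 pairs had a median partial rho of 0.43, with 31 pairs at 0.4 or above and 54 above 0. Irf8 had its highest value with Ly86 (0.76), which encodes MD-1, a partner of the receptor RP105. Ly86 was read in 52 cells with a highest value of 44, and 48 of those cells also had an Irf8 read. F13a1, for coagulation factor XIII A of monocytes, had 0.74 with Ly86 and 0.66 with Irf8. Csf1r, the receptor for macrophage colony-stimulating factor, had 0.69 with Irf8 and was read in 63 cells with a highest value of 29. The cell with most Irf8, 253 reads, was also the cell with most Ly86, Csf1r and F13a1, at 44, 29 and 89 reads. In that cell Nkg7, Cebpe and Gfi1 had 0 reads, while Mpo still had 331. The Irf8 and Ly86 value stayed between 0.75 and 0.83 under the alternatives. Among all genes, 78 had a rho of at least 0.4 with Irf8 and 19 had -0.4 or below. The next highest were Ctsh, for cathepsin H (0.75), Emb, for the adhesion protein embigin (0.71), Fcer1g, the common Fc receptor γ chain (0.70), and Ifi209, an interferon-inducible gene (0.69). The lowest were Cd63-ps, a pseudogene copy of Cd63 (-0.63), Srgn, for the granule proteoglycan serglycin (-0.61), Cd63 itself (-0.60), Pglyrp1, for a granule peptidoglycan recognition protein (-0.59), and Myb, a progenitor transcription factor (-0.53). Reads of Cd63 and its pseudogene can be split by the counting, so these are 1 signal.

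Cebpe and Gfi1, transcription factors of the granulocyte branch, had negative correlations with genes of the monocyte block. Cebpe, which encodes C/EBPε, was read in 34 cells, 15 of them with at least 3 reads, and its highest value was 13. Gfi1, for a transcriptional repressor, was read in 35 cells, 23 of them with at least 3 reads, and its highest value was 19. Cebpe had -0.52 with Ly86 and -0.47 with Irf8, and Gfi1 had -0.51 with Ly86 and -0.46 with Irf8. Their signs were kept in every alternative, with Irf8 and Cebpe between -0.60 and -0.46 and Irf8 and Gfi1 between -0.65 and -0.38. Cebpe had 0.63 with Nkg7, 0.51 with Gstm1 and 0.49 with Elane. Some cells had reads of genes from both sides. At the thinned depth 23 cells had a read of both Irf8 and Gfi1, 40 of Irf8 without Gfi1, 12 of Gfi1 without Irf8, and 10 of neither. With all reads, 38 cells had both. Irf8 and Cebpe were both read in 21 cells, Irf8 without Cebpe in 42, Cebpe without Irf8 in 13 and neither in 9. With at least 3 reads asked of each gene, 8 cells had both Irf8 and Gfi1, 40 Irf8 alone and 15 Gfi1 alone, while 4 had both Irf8 and Cebpe, 44 Irf8 alone and 11 Cebpe alone. The cell with most Gfi1, 19 reads, and the cell with most Cebpe, 13 reads, both had no Irf8 read. Cebpa and Cebpd, related factors that were read in 61 and 55 cells, did not reach -0.4 with any monocyte gene. Over the 55 pairs of the 5 factors with the monocyte list the median was -0.16, with 8 pairs at -0.4 or below, 5 with Cebpe and 3 with Gfi1. Cebpd had a positive median with the monocyte list (0.15), and with genes read in at least 50% of cells, which leaves out Cebpe and Gfi1, the list median was 0.058. As scores, the granulocyte factors had -0.44 with the monocyte list and 0.56 with the granule list.

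Members of the granule list differed in how they varied with the monocyte block. The median over the 110 pairs was -0.09, and between -0.17 and -0.074 under the alternatives, with 40 pairs above 0, 7 pairs at or below -0.4 and 7 at or above 0.4. Of the 7 low pairs, 5 involved Nkg7, which had -0.54 with Ctss, for cathepsin S, and -0.51 with Irf8. As medians with the monocyte list, Nkg7 had -0.36, Ms4a3 -0.27, Serpinb1a -0.26, Ctsg -0.19, Elane -0.18 and Gstm1 -0.17, while Mpo had 0.0023 and Prtn3 0.062. The high pairs were 4 of Igfbp4 and 3 of Ly6c2.

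Ly6c2 tied to members of both the granule and the monocyte list. It had 0.57 with Prtn3, 0.49 with Fcnb and 0.41 with Elane. With monocyte genes it had 0.52 for F13a1, 0.48 for Irf8 and 0.47 for both Csf1r and Ccr2, the chemokine receptor of monocytes. It had only 0.15 with Mpo, 0.064 with Nkg7 and 0.0078 with Serpinb1a, and -0.087 with Cebpe and -0.099 with Gfi1. As medians, Ly6c2 had 0.33 with the granule list and 0.37 with the monocyte list. Over all genes 45 had at least 0.4 with it, led by I830127L07Rik (0.84) and Ly6c1 (0.74), which are near copies of the same family and may share its reads. Tmsb4x, for thymosin β4 (0.62), and Tyrobp, the adaptor DAP12 (0.60), came next. The lowest was Angpt1, for angiopoietin-1 of stem and early progenitor cells (-0.54), followed by Tfr2, for transferrin receptor 2 (-0.48), Adgrg1, an adhesion receptor of stem cells (-0.45), Dapp1, for a phosphoinositide-binding adaptor (-0.44), and Gata2, an early progenitor and mast cell factor (-0.44). Angpt1 was read in 18 cells, 12 of them with Gata2, and this pair had 0.50. Stem and multipotent progenitor genes were otherwise uneven, with Cd27, a TNF receptor family member, read in 73 cells and Mecom, a stem cell factor, in 4, and their 28 pairs had a median of 0.16 and none at 0.4. The cell with most Angpt1, 24 reads, had 1 Ly6c2 read, 7 Elane reads and 29 Cd34 reads. Low Ly6c2 thus went with Angpt1 and Gata2 reads, and high Ly6c2 with reads of some granule and some monocyte genes.

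**Figure D2:**
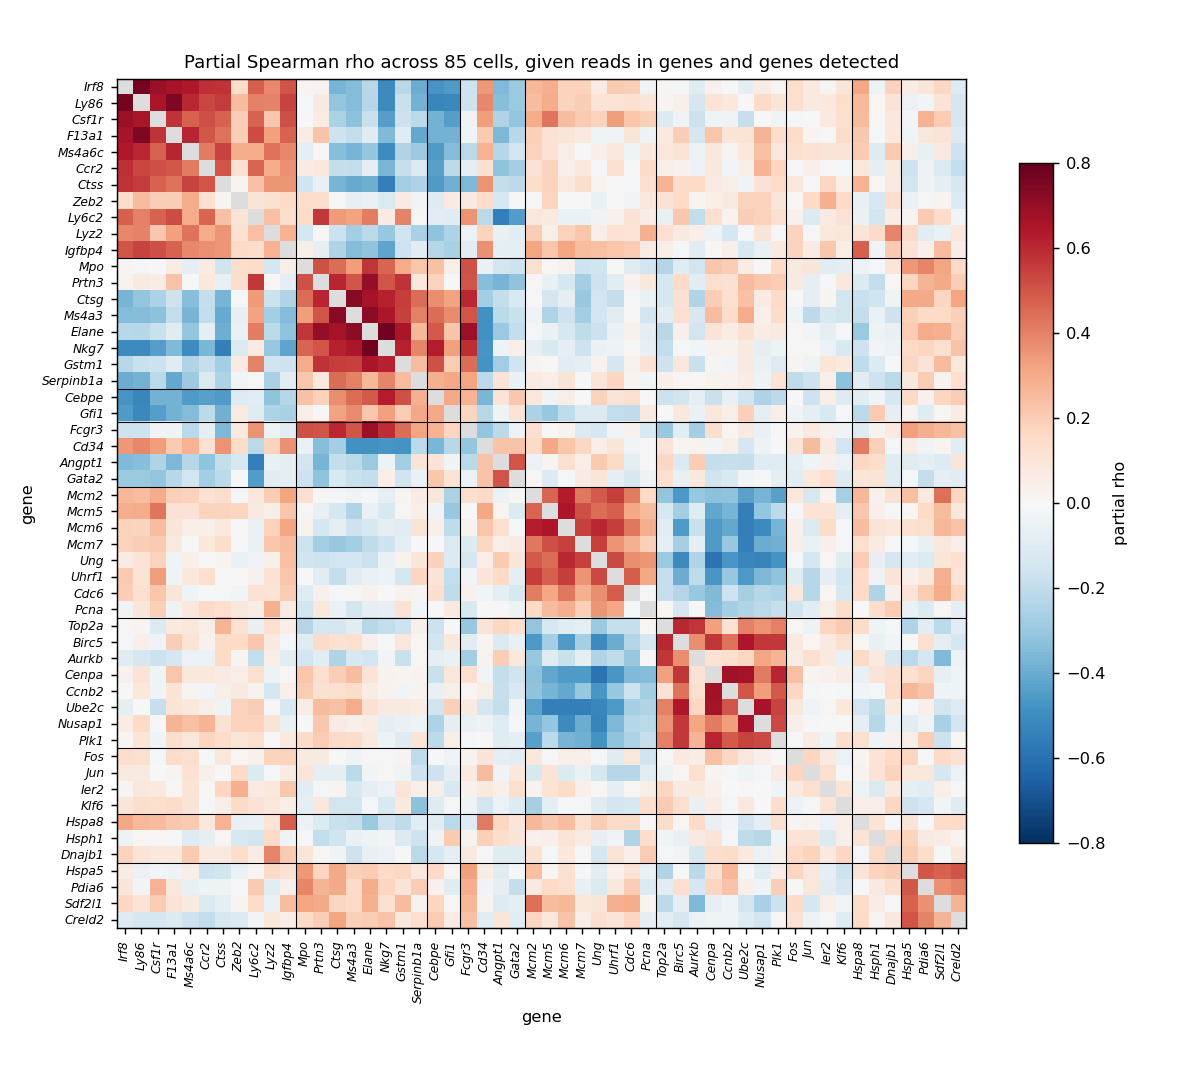
Partial Spearman rho between 52 genes across 85 cells, given reads in genes and genes detected after thinning. Both axes list the same genes in order of monocyte, granule, granulocyte factor, progenitor, replication, mitosis, immediate early, chaperone and unfolded protein response groups. Igfbp4, of the granule list, is drawn at the end of the monocyte group. Red blocks on the diagonal are the monocyte, granule, replication and mitosis genes, and the blue blocks are Cebpe and Gfi1 with monocyte genes and replication with mitosis genes.

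Genes of the late neutrophil list were read in few cells. Of its 10 members, 2 were read in at least 20% of cells, S100a8 in 27 and Lcn2, for lipocalin 2, in 29 with a highest value of 10. S100a9, the partner of S100a8 in calprotectin, was read in 6 cells, all with S100a8, and had a highest value of 18. Ngp was read in 1 cell, and Camp, Ltf and Retnlg in none. S100a8 reads were concentrated, with 53.6% in a single cell and 90.8% in the 5 highest. That cell, number 96, had 738 S100a8, 8 S100a9, 603 Ly6c2, 592 Elane and 377 Mpo reads, with 1 Irf8 read and no Lcn2 read. Of the 27 cells with S100a8, 14 had at least 3 reads of it. An Irf8 read was present in 18 of the 27, beside 63 of all 85 cells, so the overlap does not set these cells apart. S100a8 had -0.41 with Cd34, within a range of -0.55 to -0.39 under the alternatives. It also had -0.43 with H2-DMa, a chaperone of class II peptide loading. Its highest values were with low genes, Abca5 (0.54), Prom1 (0.52) and Clec4a2 (0.48), each read in under 30% of cells. Abca5 had as little as 0.16 under an alternative.

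Most genes of other lineages were read in few cells, with mast cell and basophil genes as an exception. Cell 41 had reads of all 8 genes of that list: 129 of Ms4a2 and 62 of Fcer1a, both subunits of the IgE receptor, 110 of Prss34 and 99 of Mcpt8, both proteases of basophils, 106 of Cpa3, a mast cell carboxypeptidase, 49 of Gata2, 30 of Hdc, which makes histamine, and 2 of Il1rl1, the interleukin 33 receptor. The same cell had 498 Mpo, 21 Elane, 1 Ly6c2 and no Irf8 reads. It also had 5719 thinned reads of Mir6236, a locus annotated as a miRNA. Cell 45 had 5 of the 8 genes, with 14 Cpa3 and 20 Hdc reads beside 1217 Mpo and 533 Elane reads, and no other cell had more than 4. Reads of the list were not limited to these cells. Hdc is not confined to mast cells and was read in 68 cells, while Mcpt8 was read in 28, Gata2 in 26 and Cpa3 in 15. Cpa3 had at least 3 reads in 11 cells, and its highest value, 113, was in cell 62. The score of the 3 members read in at least 20% of cells was 3.58 in cell 41 and 0.37 in cell 45. It was 2.22 in cell 55 and 2.04 in cell 88. Hdc had -0.51 with Ly86 and 0.46 with Nkg7. Erythroid genes were at 0 in 68 of 85 cells and stroma and endothelium genes in 73, and C1qa, C1qb and C1qc of macrophages had no thinned read. Of dendritic cell genes, Cd74 is listed at 0 and Siglech had 1 read in 1 cell, while H2-Ab1 was read in 26 cells and Tcf4 in 54. No doublet caller was run and cells were not clustered, so mixed wells were not tested.

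Cell cycle genes formed the other large structure. All 28 replication genes and all 35 mitosis genes were read in at least 20% of cells. Mcm6 and Mcm5, which encode subunits of the replicative helicase, had 0, 19 and 122 and 0, 14 and 66 thinned reads as lowest, median and highest. Top2a, for topoisomerase II of dividing cells, had 0, 9 and 40. Ube2c, a ubiquitin-conjugating enzyme of mitotic exit, had 0, 1 and 49, and Cenpa, the centromeric histone, had 0, 1 and 31. Nearly every cell had Mcm6 reads (84 of 85), while Ube2c was read in 44 and Cenpa in 46. Both Cenpa and Ube2c were read in 33 cells and neither in 28.

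The promoters of these 4 genes are shown because pairs of replication and mitosis genes made up 7 of the 10 lowest correlations among list genes. Sequences are RefSeq windows on GRCm38.p6, each running from 250 bases before to 50 bases after the gene's start, on the strand of the gene. In the mitosis pair the capitals mark TTTGAA, the cell cycle homology region, and CCAAT, and in the replication pair they mark TTTNNCGC, an E2F-type motif. Each was searched on both strands, and matches can overlap.
Cenpa: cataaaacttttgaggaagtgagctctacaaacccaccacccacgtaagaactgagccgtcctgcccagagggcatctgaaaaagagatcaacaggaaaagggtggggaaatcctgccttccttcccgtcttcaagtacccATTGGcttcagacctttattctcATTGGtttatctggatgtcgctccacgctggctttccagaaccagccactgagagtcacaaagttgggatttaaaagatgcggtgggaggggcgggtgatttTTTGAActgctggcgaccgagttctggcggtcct
Ube2c: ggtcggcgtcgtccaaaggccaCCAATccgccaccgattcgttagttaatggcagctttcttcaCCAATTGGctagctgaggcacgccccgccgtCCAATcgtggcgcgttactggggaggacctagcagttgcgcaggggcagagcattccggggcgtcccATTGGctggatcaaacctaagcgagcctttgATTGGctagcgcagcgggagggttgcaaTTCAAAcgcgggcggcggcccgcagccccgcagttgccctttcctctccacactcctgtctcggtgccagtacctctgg
Mcm5: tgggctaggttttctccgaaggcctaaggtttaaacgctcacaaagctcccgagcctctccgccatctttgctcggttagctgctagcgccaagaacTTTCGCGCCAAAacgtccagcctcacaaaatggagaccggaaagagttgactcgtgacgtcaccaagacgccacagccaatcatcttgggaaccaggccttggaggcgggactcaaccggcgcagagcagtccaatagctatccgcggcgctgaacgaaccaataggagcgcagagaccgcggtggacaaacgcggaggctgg
Mcm6: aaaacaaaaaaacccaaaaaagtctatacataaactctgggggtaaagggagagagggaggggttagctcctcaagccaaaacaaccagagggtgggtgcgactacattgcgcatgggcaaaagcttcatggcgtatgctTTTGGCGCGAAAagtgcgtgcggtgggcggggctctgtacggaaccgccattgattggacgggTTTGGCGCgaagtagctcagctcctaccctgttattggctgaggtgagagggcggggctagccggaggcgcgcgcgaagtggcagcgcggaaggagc
The windows are chr5:30666636-30666935 (plus strand), chr2:164769679-164769978 (plus), chr8:75109259-75109558 (plus) and chr1:128359656-128359955 (minus). Of 35 mitosis genes 31 had a window, and of 28 replication genes 24. TTTGAA was in 23 of 31 mitosis windows (74.2%), 3 of 24 replication windows (12.5%) and 18.1% of all 27025 windows. CCAAT was in 77.4%, 62.5% and 37.9%. TTTNNCGC was in 2 of 31 mitosis windows (6.45%), 9 of 24 replication windows (37.5%) and 5.27% of all. A match is a string of letters in the window and shows no binding.

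Within the mitosis list the 595 pairs had a median partial rho of 0.30, with 152 at 0.4 or above and 577 above 0. Ccnb2, for cyclin B2, and Cenpa had 0.67, Cenpa and Ube2c 0.67, Nusap1, for a spindle protein, and Ube2c 0.66, and the kinase genes Plk1 and Aurka 0.65. Within the replication list the 378 pairs had a median of 0.22, with 52 at 0.4 or above and 369 above 0. Mcm5 and Mcm6 had 0.65, Mcm2 and Mcm6 0.63, and Ung, for uracil-DNA glycosylase, and Lig1, for DNA ligase I, 0.60. Pcna, for the sliding clamp, was weakly tied, with 1 gene at 0.4 or above, its own pseudogene Pcna-ps2 (0.42), and 0.37 with Lig1.

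Replication and mitosis genes were high in different cells. Their 980 pairs had a median of -0.17, with 51 at or below -0.4 and none at or above 0.4. The lowest was Ung with Cenpa (-0.59, between -0.67 and -0.52 under the alternatives). Mcm5, Mcm6 and Mcm7 each had -0.55 with Ube2c. The cell with most Mcm6, 122 reads, had 14 Ung, 1 Ube2c and 0 Cenpa reads. The cell with most Ube2c, 49 reads, had 29 Cenpa, 7 Mcm6 and 0 Ung reads. As mean z scores over the members, mitosis and replication had a partial rho of -0.48. Without the partial terms the median of the 980 pairs was -0.065, so the size of the opposition depended on holding depth and genes detected. Both scores themselves rose with genes detected, with a rho of 0.54 for mitosis and 0.52 for replication. The part of each term was not tested. Of the cycle controls, Cdk6, a G1 kinase, was read in all 85 cells and Cdk4 in 84. Ccnd2, a D cyclin of blood progenitors, had 0, 9 and 29 reads and 0.57 with Myc. Cdkn1a, the p21 inhibitor, was read in 21 cells with a highest value of 10, and Cdkn1b, the p27 inhibitor, in 33 with a highest value of 4.

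**Figure D3:**
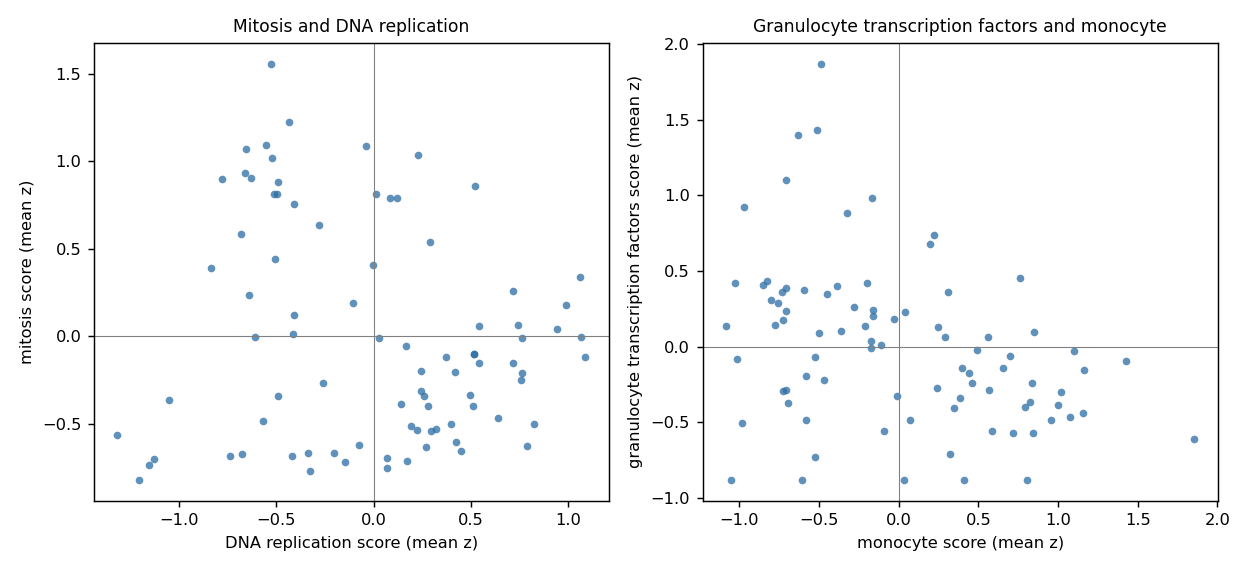
Mean z scores of list members per cell, without partial terms. On the left mitosis (35 genes) is plotted against DNA replication (28 genes), and on the right granulocyte transcription factors (5 genes) against the monocyte list (11 genes), with each point a cell of 85. High mitosis scores lie mostly with low replication scores, cells low in both are also seen, and the highest factor scores lie at monocyte scores below 0, with a few cells above 0 in both.

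Few pairs of lineage with cycle genes passed 0.4 in either direction. Over all pairs of genes 0.0440% were at 0.4 or above and 0.00963% at -0.4 or below. A count of 0 therefore does not set these lists apart. Of 280 pairs of granule with replication genes and 350 of granule with mitosis genes, 0 passed 0.4 in either direction. Of 308 pairs of monocyte with replication genes 1 did, Csf1r with Mcm5 (0.43), and of 385 with mitosis genes 0 did. As scores, the monocyte list had 0.23 with replication and 0.15 with mitosis, and the granule list had -0.056 and 0.11. Cell 20, with most Ube2c, had 78 Irf8 reads, and the cell with most Cenpa had none. So cells rich in mitosis genes included an Irf8-high cell and an Irf8-negative one.

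Immediate early and heat shock genes had list medians slightly above the 0.01 of all pairs of genes. Immediate early genes, which respond within minutes to stimulation or handling, were read in many cells: Ier2 in 69 with a median of 5 and a highest value of 31, Jun in 65 with 2 and 32, Fos in 57 with 3 and 58. Atf3 had no thinned read. Their 55 pairs had a median partial rho of 0.10. None was at 0.4 or above, a level that 0.0440% of all pairs of genes reached. Fos and Jun had 0.17 although 48 cells had both. Fos reached 0.4 with a single gene, Gm8546 (0.42). Egr1, another member, was read in 6 cells. Heat shock genes had a median of 0.09 over 36 pairs, also with none at 0.4. Hsp90ab1, a constitutive chaperone, had 3, 116 and 268 reads, whereas Hspa1a, which is heat inducible, was read in 25 cells with a highest value of 12, and its copy Hspa1b, which may share reads, in 7. Hspa8, the constitutive HSC70, had 0, 10 and 29 reads and its highest list values with Igfbp4 (0.48) and Cd34 (0.41). The Igfbp4 value ran from 0.17 to 0.64 under the alternatives.

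Genes of the unfolded protein response, which raises folding capacity in the endoplasmic reticulum, did vary together. All 11 were read in at least 85.9% of cells, with 0.24 as the median over 55 pairs and 9 pairs at 0.4 or above. Lists were not matched for detection. The median share of cells with a read, over all members, was 94.1% here, 71.8% for heat shock and 30.6% for immediate early genes. The part of detection in these medians was not tested. Hspa5, for the chaperone BiP, had 0, 45 and 172 reads, and calreticulin, from Calr, had 2, 89 and 278. Hspa5 had 0.55 with Calr, 0.50 with Creld2 and 0.50 with Pdia6, and Hsp90b1 had 0.51 with Sdf2l1. With the granule list their median was 0.18, with 3 of 110 pairs at 0.4 or above and none at or below -0.4. Amino acid stress genes had a median of 0.08 over 21 pairs, and Ddit3, for CHOP, was read in 17 cells (3 with at least 3 reads) and Trib3 in 3. Targets of p53 had 0.01 over 10 pairs, with Mdm2 in 35 cells, Bax in 59 and Cdkn1a and Mdm2 together in 10. Ribosome biogenesis genes had 0.09 over 66 pairs, with 1 at 0.4 or above, nucleolin, from Ncl, with Myc (0.46). Mitochondrially encoded transcripts, high in some stressed cells, had a median of 0.34 and 17 of 45 pairs at 0.4 or above. Interferon response genes had 0.03 over 10 pairs, and Ifit1 was read in 5 cells, Ifit3 and Rsad2 in 1 each and Isg15 in none.

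Receptors and signalling genes were less structured. Csf3r, the receptor for granulocyte colony-stimulating factor, was read in 51 cells with a highest value of 22, and 37 cells had both Csf3r and Csf1r. Csf2ra and Csf2rb, subunits of the GM-CSF receptor, were read in 60 and 58 cells. Il6st, the shared gp130 receptor chain, was read in 31 cells and had 0.64 with Csf1r, 0.52 with F13a1, 0.52 with Ms4a6c and 0.52 with Irf8, all of the monocyte list. Csf3r and Kit reached 0.4 with no list gene. Of β-catenin pathway genes, Ctnnb1 itself was read in 62 cells, its target Axin2 in 28 (4 with at least 3 reads), and Lef1 and Tcf7 in 2 and 1. Their 10 pairs had a median of 0.03.

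The most variable genes were ranked by the squared coefficient of variation over that expected from 25 spike-in RNAs of the same mean. Of 5899 genes tested, 270 (4.58%) were at more than 2 times the spike-in curve, and the median gene was at 0.968. All 9 granule genes tested were above 2 times the curve, with a median ratio of 12.0, as were 8 of 11 monocyte genes, with a median of 2.56. The 4.58% is over genes of all means, and no share was taken for genes of similar mean. Other genes with many reads passed too, among them Actb at 18.5, Tmsb4x at 11.6 and Gpx1 at 5.94. No spike-in had a mean above 386 reads, so the curve was extrapolated for the highest genes. Spike-ins were scaled to their own total, so the curve does not carry spread from the Slc34a2 share of a cell's reads. The part of that share in the ratios was not tested. Elane was at 68.4, Mpo at 53.6, Ly6c2 at 27.9, Ctsg at 27 and Irf8 at 12.3. Of cycle genes 7 of 35 mitosis and 6 of 28 replication genes passed, including Ube2c at 3.96 and Mcm6 at 4.50. Of immediate early genes 2 of 8 passed, Fos at 3.84 and Jun at 2.05. Among the 20 highest were 10 genes outside the lists. Mir6236 (881.6 times the curve) and AA474408 (430.0) each held over 50% of their reads in cell 41. Apoe, for apolipoprotein E (20.2), also held 56.7% there. S100a8 was at 92.5 and Cpa3 at 14.2, with 90.8% and 80.9% of their reads in 5 cells. Serpina3g, for a serine protease inhibitor, was at 20.8 with reads in 22 cells and 54.3% of them in a single cell. Slc34a2 (148.0), the ribosomal RNA locus CT010467.1 (49.2) and Scn4b (13.6) are named with depth beside them, since Slc34a2 followed depth as given above. Actb, for β-actin, Srgn, and the mitochondrial mt-Nd1, mt-Cytb and mt-Rnr2 complete the 20 with Prtn3. Without Slc34a2 and CT010467.1 in the totals 521 genes passed, and with deeper cells thinned to 100000 reads 567 did.

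**Figure D4:**
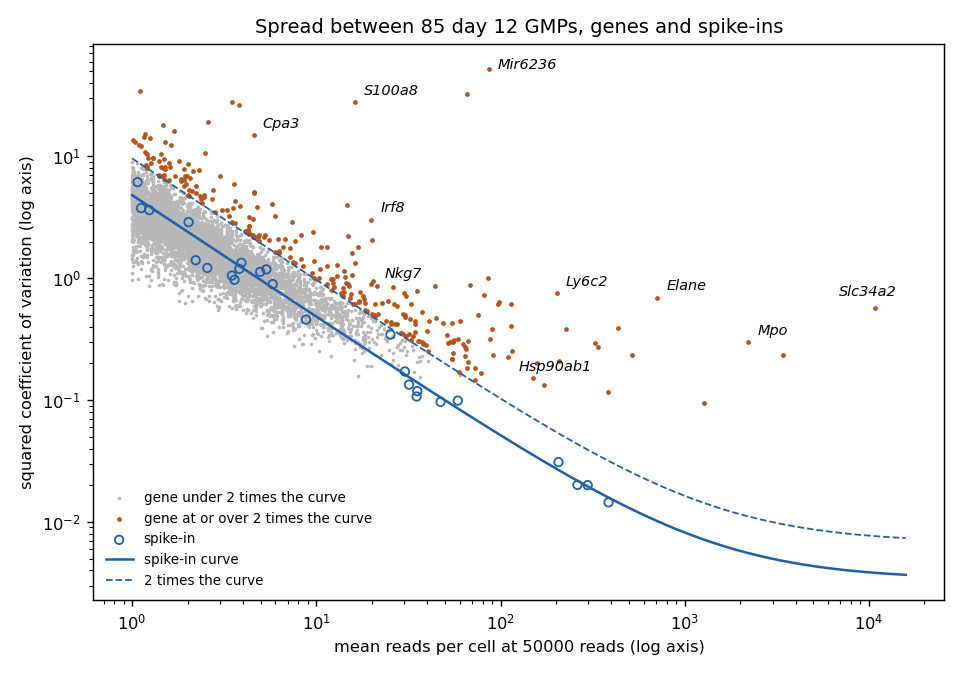
Squared coefficient of variation against mean thinned reads for 5899 genes and for spike-ins with a mean of at least 1 read, both axes logarithmic. The solid line is the curve fitted to the spike-ins and the dashed line is 2 times it. Orange marks the 270 genes above the dashed line, where Elane, Mpo, Ly6c2, Irf8 and S100a8 lie, while the spike-ins lie along the solid line.

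A principal component analysis used the 500 most variable genes outside the cycle lists, with no list to orient it. Component 1 held 20.2% of the variance and had a rho of -0.91 with the Slc34a2 share and 0.73 with reads in genes. It ran from Actb, Atp5b and Eif5a to Scn4b, Slc34a2 and Prdm16, so it followed depth and this locus. With Slc34a2 and CT010467.1 left out, which kept 71 cells, its value with the Slc34a2 share was -0.37. Component 2 held 6.26% and had 0.10 with reads in genes and -0.75 with the monocyte score. At its positive end stood Srgn, Pglyrp1, Nkg7, Cd63-ps, Rgcc, Cd63, Pde4d, Myb, Ms4a3 and Cldn15. Its negative end held Ly86, Irf8, Ms4a6c, Ifi209, Ctss, Fcer1g, F13a1, Csf1r, Ctsh and Pld4. With the granulocyte factor score it had 0.67 and with the granule score 0.62. The granule value was 0.28 in cells with at least 100000 reads and -0.011 without Slc34a2 and CT010467.1, and the granulocyte factor value was 0.53 and 0.31 under the same settings, so neither kept its size. The monocyte end held Ly86, Ctsh, Fcer1g and Ifi209, which are also among the Irf8 neighbours given above. Both come from the same counts and Irf8 itself leads this end, so the overlap is no separate support. The monocyte score also shares Ly86, Irf8, Ms4a6c, Ctss, F13a1 and Csf1r with this end, and the granule score shares Nkg7 and Ms4a3 with the other.

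**Figure D5:**
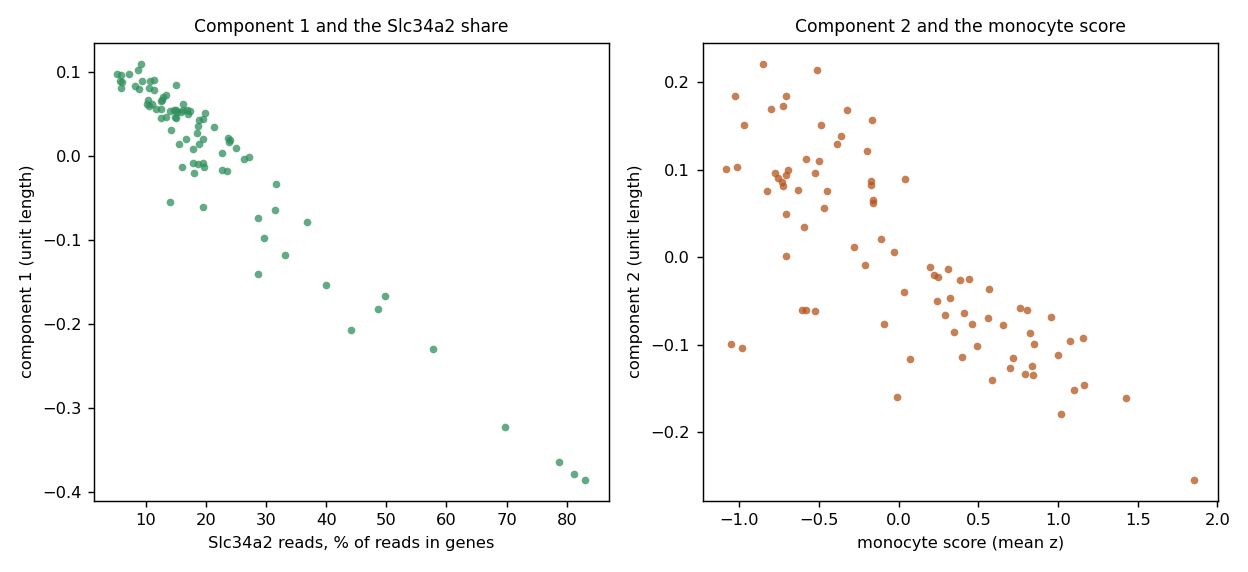
Left, component 1 against the share of Slc34a2 reads in each of 85 cells, and right, component 2 against the monocyte score. Component 1 falls steadily as the Slc34a2 share goes from 5.30% to 83.1%, and component 2 falls as the monocyte score increases (rho -0.75).

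RNA content was taken as reads in genes over spike-in reads, which ran from 6.65 through 49.9 to 85.8. Its rho was 0.56 with the mitosis score, 0.58 with that of the unfolded protein response and 0.36 with replication. Given reads and genes detected, the values were 0.32, 0.42 and 0.10. The ratio itself had 0.64 with genes detected and -0.61 with the Slc34a2 share, and their part in these values was not tested beyond the partial terms.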

How the data were processed

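Single cells were sorted into wells, amplified with Smart-seq2 and tagmented with Nextera XT, per the labels' protocols. The authors deposited whole-number read counts per gene, not normalized, made with GSNAP and HTSeq 0.5.3p3 on mm10, per the submitters' processing notes. Neither kit step marks strand, so antisense genes cannot be told apart. The labels list 96 day 12 cells, of which 95 had a column, and 1 column was not used. Of 46078 gene rows, 45143 had a symbol by ID. Totals left out the 92 spike-ins and 5 further entries without a gene, which held a median of 91.7% of a cell's reads.

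Kept cells were thinned without replacement to 50000 reads in genes. Genes entered the variability ranking with a read in at least 10% of cells and a mean of at least 1, and correlations with a read in at least 20%. Scores and components used log2(thinned reads + 1). Shares carry exact (Clopper-Pearson) 95% intervals, and a count of 0 allows 3 cells of the total. There was 1 set of cells, so no test was made. Scripts were tested on simulated data. Analyses ran in scipy 1.17.1, pandas 2.3.3 and numpy 2.4.6 under Python 3.11.15, with plots in matplotlib 3.10.9. Positions are from GENCODE vM21 (GRCm38, the build of mm10).

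Members and lists were chosen with earlier results of these data known. Named are the 3 markers, the 20 most variable genes, the 5 highest and 5 lowest neighbours of 8 genes, the extreme pairs of list genes (from a rho of 0.4), the leading genes of components 1 and 2, and the members of each list with most reads. Of these, those with values worth a sentence are printed. Single cells, co-detected pairs and other list members were chosen after their values were seen, as were the promoters shown and the motifs. Alternatives were no thinning, a second draw, deeper cells, no Slc34a2 and CT010467.1, no cells with Xist and Y-linked reads, other partial terms, Pearson correlation, other gene filters and another variability curve. Added after seeing the data were i5 and i7 index terms, cell 41 left out, S517 cells left out, and a minimum of 3 reads.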

Additional observations from a re-analysis of the deposited data

How the results depend on the processing

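No paired analysis was possible because the cells are 1 set with no groups to pair. Of 85 named pairs at an absolute rho of at least 0.4, 70 to 84 stayed past it in each of 13 alternatives and none changed sign. The share of cells with an Irf8 read was 88.2% without thinning, 84.6% in cells with at least 100000 reads, 84.5% without Slc34a2 and CT010467.1, and 56.5% at 3 reads. That of S100a8 was 44.6% in the deeper cells and 16.5% at 3 reads, and that of Ly6c2 was 90.6% at 3 reads. Genes past 2 times the spike-in curve numbered 567 in the deeper cells and 521 without the pair of loci, sharing 80 and 78 of the first 100. The plain Spearman medians were -0.065 for replication with mitosis, 0.23 for ribosome biogenesis, 0.20 for amino acid stress and 0.090 for the sort gate. With genes read in at least 50% of cells, which leaves fewer genes, the medians were 0.058 for granulocyte factors with monocyte genes, -0.036 for stem genes and -0.36 for monocyte with mast cell genes. The mast cell and basophil median (3 genes) was 0.15 in a second draw, 0.061 in the deeper cells and 0.15 without the pair of loci. Component 1 had -0.58 with the Slc34a2 share in the deeper cells and -0.37 without the pair of loci. In the same order, component 2 had 0.28 and -0.011 with the granule score (0.76 without S517 cells), and 0.53 and 0.31 with the granulocyte factor score. With genes detected it had 0.037 without thinning, 0.076 in the deeper cells and 0.10 without the loci. RNA content with the replication score had 0.17 in the deeper cells, 0.18 without the loci and 0.25 without S517 cells. The cause of these shifts was not tested. Shares of cells with a read depend on depth and on the minimum, so those of low genes are given for this depth only.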
